A study of Mus musculus with 7 samples.

Results

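Collagen chains are the polypeptides that wind 3 at a time into the collagen triple helix, and each is encoded by a gene of its own. The members described here are all genes whose mouse symbol consists of Col, a type number, the letter a and a chain number, found by matching the gene IDs of the count tables to the GENCODE M21 annotation. The rule used no measured value and found 44 genes among 53801 gene IDs. They lie on 15 chromosomes. RNA was measured in bone marrow mesenchymal stromal cells (BMSCs), the supporting cells of the marrow that can form bone, fat and cartilage. The donors were male C57BL/6 mice, 8 weeks old at the start. For 35 days the mice received 100 µl by daily intraperitoneal injection. In 4 libraries the injection held an inhibitor of fibroblast activation protein (FAPi) at 500 µg/kg, and in 3 libraries it was the vehicle DPBS, a phosphate-buffered saline. The sources used here do not name the inhibitor. Live limb-bone cells that carried Pdgfra and lacked CD45, Ter119 and Tie2 were sorted, 7000 per sample, and made into Smart-seq2 type libraries. No knockout or transgene was involved. Nothing in the sample labels states that each library came from a separate mouse, although the design text counts mice, so the p-values below measure the spread between libraries.

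Fibrillar collagens such as types I, III and V build the ropes that give bone and tendon their tensile strength. Type IV forms the sheet of the basement membrane, type VI beaded filaments around cells, and type VIII a hexagonal lattice. Fibril-associated collagens (FACITs) sit on the surface of fibrils, and multiplexins and transmembrane collagens lie at basement membranes and cell surfaces. In the endoplasmic reticulum, proline and lysine hydroxylases modify the chains before they fold, and outside the cell proteases trim the ends and lysyl oxidases crosslink the fibrils. Fibroblast activation protein (FAP) is a serine protease of the cell surface that can cleave denatured type I collagen. The comparison of FAPi with DPBS therefore addresses matrix transcripts after treatment with a compound given as its inhibitor. Inhibition of the enzyme was not measured here.

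The type IV pair is shown by sequence because its genes share a start. Col4a1 (minus strand) and Col4a2 (plus strand) stand head to head on chromosome 8, and their annotated first exons overlap by 22 bases at chr8:11312805-11312826 (GRCm38.p6). The overlap lies inside the RefSeq promoter windows of the genes and is given 5′ to 3′ on the plus strand, with the letters GGGCGG, the core of a GC box, in capitals.
Col4a1 and Col4a2 shared start: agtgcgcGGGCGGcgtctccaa
On both strands together, GGGCGG was found in the same bases after the start in 4.09% of 32851 RefSeq promoter windows. The match is a description of letters and not of a bound factor. Promoter windows were listed for 35 of the 44 members.

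Total counts ranged from 7492570 to 10569690 per library, so that a floor of 3 counts corresponded to between 0.284 and 0.400 CPM, the count scaled to the library total. All 10 marrow stroma markers (among them Pdgfra, Lepr, Cxcl12 and Kitl) had counts, with a summed level of 24698 to 28418 CPM in DPBS and 22944 to 30615 CPM in FAPi libraries. Levels are CPM scaled with the trimmed mean of M-values (TMM) unless stated. Red cell genes summed to 1639 to 15142 CPM in DPBS and 1527 to 3028 CPM in FAPi libraries, and all 7 tested red cell markers and all 8 neutrophil markers had lower estimates in FAPi. Fap had 194, 174 and 213 CPM in DPBS replicates 1 to 3 and 205, 268, 221 and 251 CPM in FAPi replicates 1 to 4. It did not pass the test (log2 difference 0.29 ± 0.23 SE, edgeR adjusted p = 0.799), and the transcript level does not measure inhibition of the enzyme.

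Of the 44 chains, 36 had at least 1 count in at least 1 library, 35 reached 3 counts in a library and 30 reached 3 counts in every library. A single library held between 30 and 34 chains. No count was found for Col4a6, Col6a6, Col9a2, Col10a1, Col13a1, Col17a1, Col19a1 and Col24a1. These 8 are 18.2% of the members, where 35.9% of 21967 protein-coding genes had no count. Col10a1 encodes the collagen of hypertrophic cartilage, and Col17a1 that of the skin hemidesmosome. The 3 counts that a count of 0 allows are 4.79e-06% of the counts of all libraries. Another 6 chains had between 2 and 38 counts in total and did not pass the filter on low counts. These were Col28a1, Col9a1, Col4a4, Col4a3, Col7a1 and Col4a5. The remaining 30 chains were tested.

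Levels between chains were compared as CPM per kilobase of annotated exon. Col1a1 stood first with 393 ± 257 (SD over 7 libraries), followed by Col1a2 with 247 ± 46.1 and Col6a1 with 161 ± 29.97. These encode the α1 and α2 chains of type I collagen, the main protein of bone, and the α1 chain of type VI collagen. Next came Col8a1 with 59.6 ± 15.9, Col4a1 with 51.1 ± 7.87, Col6a2 with 30.1 ± 6.89 and Col3a1 with 25.9 ± 6.57. Col4a2 (24.0 ± 4.28), Col5a2 (18.1 ± 3.81) and Col5a1 (13.3 ± 2.27) completed the first 10. Of the 9 steps between neighbours in this order, 3 exceeded the sum of the neighbours' SDs, those from Col1a2 to Col6a1, from Col6a1 to Col8a1 and from Col4a1 to Col6a2. The other steps stayed within that sum, which takes no account of both chains being measured in the same libraries. The lowest tested chain was Col6a4, at a level 1426 times below Col1a1 per length. Length choice mattered for the first place. With the longest annotated transcript as length, Col1a2 (574.5 CPM per kb) exceeded Col1a1 (435 CPM per kb), since the exon union of Col1a2 is 12426 bases and its longest transcript 5348 bases. Of the first 10 chains, 9 were the same under both lengths.

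**Figure D1:**
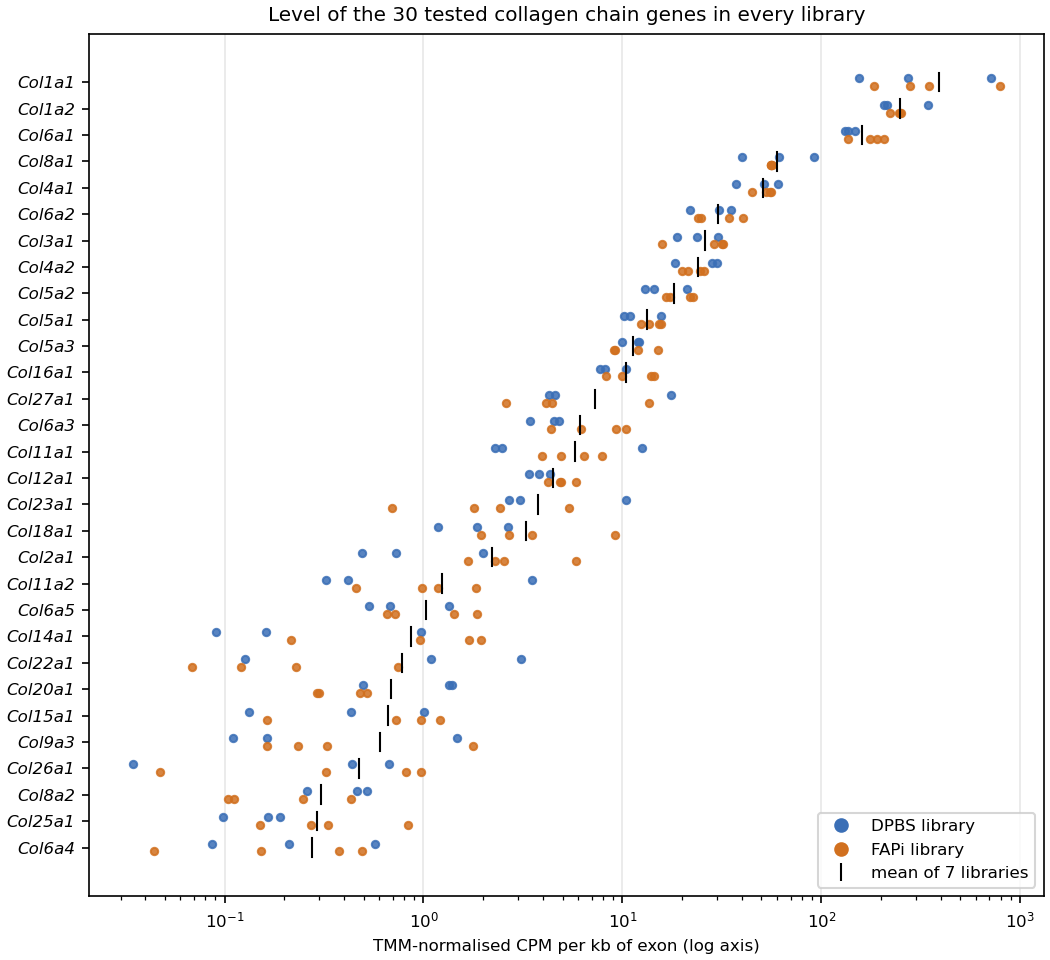
Level of each of the 30 tested collagen chain genes in every library, in TMM-normalised CPM per kb of exon on a log axis; blue points are DPBS, orange points FAPi libraries, and black ticks the mean of 7 libraries. The points of the 2 groups overlap at all 30 chains, and the libraries of Col1a1 at the top scatter 5.14-fold, those of Col1a2 below it 1.66-fold.

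Type I chains took 64.8% of the 546320 collagen counts, and the first 10 chains 93.4%. By class, fibrillar chains held 74.1% of collagen counts, type VI chains 11.7%, type IV chains 6.24%, the type VIII pair 5.47% and FACITs 1.80%. Together the 44 genes took 0.768% (95% Wilson interval 0.762 to 0.773), 0.695% (0.690 to 0.700) and 1.26% (1.25 to 1.26) of counts in DPBS replicates 1 to 3. In FAPi replicates 1 to 4 the share was 0.747% (0.741 to 0.753), 0.974% (0.968 to 0.981), 0.760% (0.754 to 0.765) and 0.823% (0.8164 to 0.8294). The highest share was that of DPBS replicate 3 and the lowest that of DPBS replicate 2, so the FAPi values lay within the DPBS range. Means were 0.906 ± 0.305% (SD, n = 3) and 0.826 ± 0.104% (SD, n = 4), a difference of -0.0805 percentage points, which was 0.0946 without DPBS replicate 3, -0.186 without DPBS replicate 2 and -0.150 without DPBS replicate 1. Intervals and floors cover counting error only. In sorted bulk samples, fewer cells of a type and less RNA per cell cannot be told apart.

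None of the 30 tested chains passed the edgeR threshold of an adjusted p under 0.05 between FAPi and DPBS, as was true of all 12930 genes tested (percent called 0). The smallest adjusted p was 0.582 among the chains and 0.0989 among all genes. At an unadjusted p under 0.05 there were 2 chains, Col2a1 and Col6a3, beside 8.14% of all genes. Both were higher in FAPi, beside 4.45% of all genes, and without DPBS replicate 2 no chain reached that p. DESeq2 called 135 genes (1.04% of those tested) and no chain, and limma, run on weighted counts and on the deposited CPM, called no chain either. No chain had groups that did not overlap, where 7.34% of all genes did. Estimates were higher in FAPi for 19 chains and lower for 11, beside 50.6% of all genes higher. Without DPBS replicate 2 the split was 14 to 16, and without DPBS replicate 3 it was 23 to 7. With library size as the only scaling, which moved the median log2 difference of all genes from 0.0081 to -0.16, 15 chains were higher and 15 lower, and with limma on the deposited CPM 16 were higher and 14 lower. The median log2 difference of the chains was 0.098 under TMM and -0.052 with library size only, in each case above the median of all genes. Without DPBS replicate 2 it was -0.087 and lay below the median of all genes, 0.038. An absolute log2 difference above 1 was estimated for 7 of the 30 chains, beside 21.7% of all genes. The median SE of the chains, 0.59 log2 units, was close to that of all genes, 0.62.

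**Figure D2:**
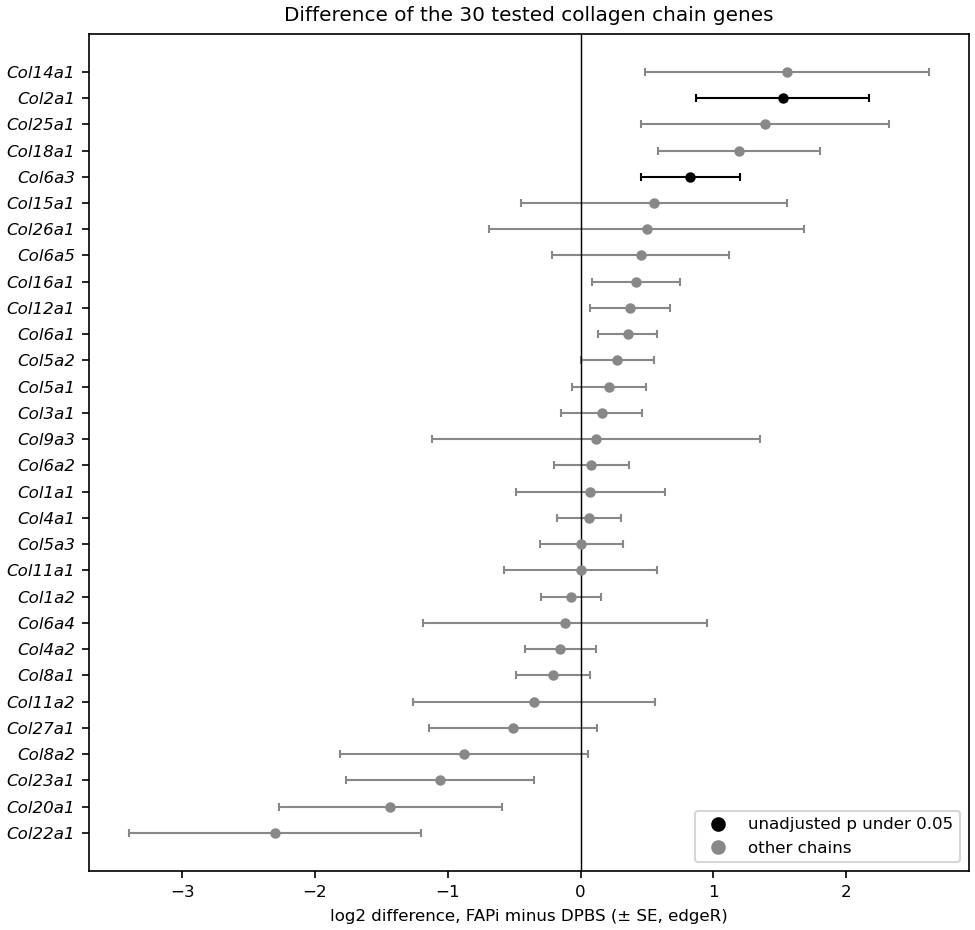
Log2 difference (FAPi minus DPBS) of the 30 tested chains from edgeR with bars of 1 SE on each side, sorted by size; black points have an unadjusted p under 0.05. Estimates run from -2.30 at Col22a1 to 1.55 at Col14a1, none passes the adjusted threshold, and the 10 most abundant chains all lie between -0.21 and 0.35.

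Among the fibrillar chains, the type I pair differed in how much it varied between libraries. Col1a1 (ENSMUSG00000001506, chr11:94936224-94953042, GRCm38) had 1014, 1799 and 4695 CPM in DPBS replicates 1 to 3 and 1206, 5215, 1831 and 2282 CPM in FAPi replicates 1 to 4. It was high in 1 library of each group, DPBS replicate 3 and FAPi replicate 2, and the groups overlapped. Its log2 difference of 0.07 ± 0.56 (SE, edgeR adjusted p = 0.992) was 0.90 without DPBS replicate 3 and -0.51 without FAPi replicate 2.

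Col1a2 (ENSMUSG00000029661, chr6:4504814-4541544) had 2652, 2567 and 4264 CPM in DPBS and 2737, 3129, 3065 and 3095 CPM in FAPi libraries. DPBS replicate 3 was again the highest, but FAPi replicate 2 was not set apart, and the highest library was 1.66 times the lowest, against 5.14 times for Col1a1. Its log2 difference was -0.07 ± 0.22 (edgeR adjusted p = 0.972), and 0.20 without DPBS replicate 3. As a ratio per length, Col1a1 to Col1a2 was 0.724, 1.33 and 2.08 in DPBS and 0.834, 3.16, 1.13 and 1.40 in FAPi libraries. The usual type I trimer holds 2 α1 chains and 1 α2 chain, a protein number that a ratio of RNA does not measure. The ratio was lowest in DPBS replicate 1 and highest in FAPi replicate 2, a 4.36-fold range, and its absolute level depends on the length used.

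Osteoblast genes are set beside the type I chains, because osteoblasts make most collagen of bone. Bglap, which encodes osteocalcin, had 587, 2523 and 4818 CPM in DPBS and 400, 1777, 599 and 1602 CPM in FAPi libraries. Alpl, the alkaline phosphatase of mineralising cells, had 71.5, 44.9 and 257 CPM in DPBS and 83.0, 102, 82.7 and 118 CPM in FAPi libraries. Both were highest in DPBS replicate 3, as Col1a2 was. Ibsp, the bone sialoprotein gene, had another order, with 11290, 16632 and 15261 CPM in DPBS and 10060, 15117, 12281 and 17349 CPM in FAPi libraries and its highest value in FAPi replicate 4. Summed over the 12 osteoblast markers, all of which had counts, the level was 16479 to 25431 CPM in DPBS and 13985 to 24672 CPM in FAPi libraries, with the highest sum also in DPBS replicate 3. The part of osteoblast content in the type I levels was not tested.

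**Figure D3:**
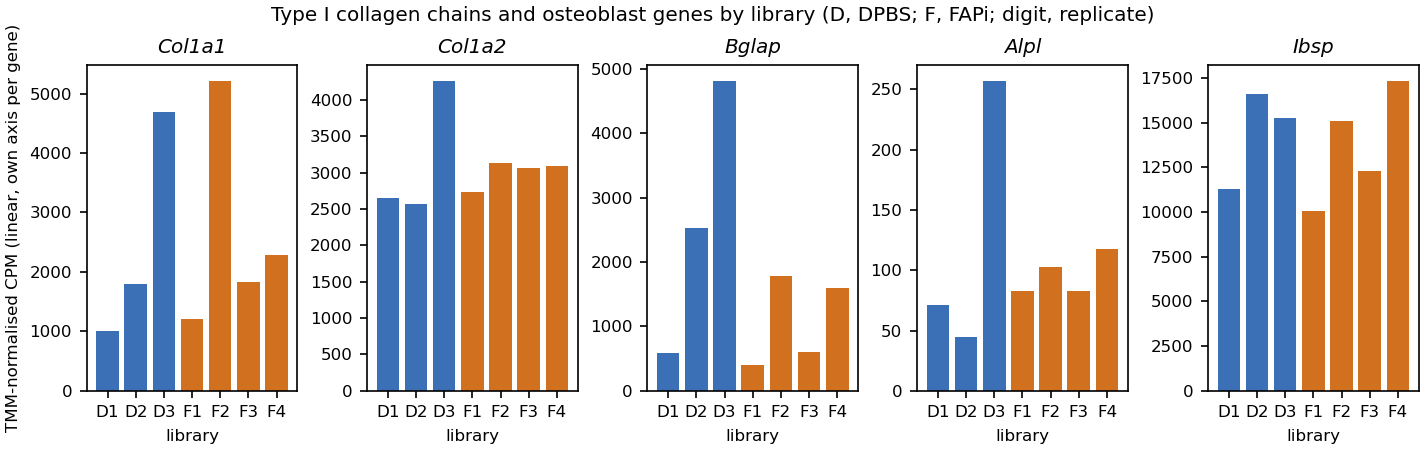
TMM-normalised CPM of Col1a1, Col1a2 and the osteoblast genes Bglap, Alpl and Ibsp in every library, each panel with its own linear axis from 0; blue bars are DPBS (D1 to D3), orange bars FAPi (F1 to F4). DPBS replicate 3 has the highest Col1a2, Bglap and Alpl bars and the second highest Col1a1 bar after FAPi replicate 2.

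Col3a1, the chain of the thin fibrils of soft tissue, followed another order. It had 233, 298 and 184 CPM in DPBS and 284, 155, 316 and 310 CPM in FAPi libraries. The lowest values were those of FAPi replicate 2 and DPBS replicate 3, the same libraries that were highest in Col1a1, and the groups overlapped (log2 difference 0.16 ± 0.30, edgeR adjusted p = 0.938). That difference was 0.00077 without DPBS replicate 3 and 0.35 without DPBS replicate 2. On the genome Col3a1 lies on chromosome 1 (45311538 to 45349706), 24614 bases from Col5a2 (45374321 to 45503282) on the other strand.

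Type V chains regulate the diameter of type I fibrils. Col5a2 had 138, 124 and 203 CPM in DPBS and 211, 158, 167 and 217 CPM in FAPi libraries. Col5a1 had 133, 86.1 and 92.3 CPM in DPBS and 129, 115, 132 and 106 CPM in FAPi libraries. For each of these chains all FAPi values lay above the lowest DPBS value, and the highest DPBS library was DPBS replicate 3 for Col5a2 and DPBS replicate 1 for Col5a1. The log2 differences were 0.28 ± 0.27 for Col5a2 and 0.22 ± 0.28 for Col5a1, and neither passed (edgeR adjusted p = 0.844 and 0.897). Without DPBS replicate 3 the Col5a2 difference was 0.52, and without DPBS replicate 2 it was 0.14. That of Col5a1 was 0.43 without DPBS replicate 1, 0.14 without DPBS replicate 3 and 0.10 without DPBS replicate 2. Their ratio per length, Col5a1 to Col5a2, ran from 0.514 in DPBS replicate 3 to 1.08 in DPBS replicate 1. Col5a3, whose chain replaces a type V partner in some tissues, had a log2 difference of 0.0041 ± 0.31.

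Col2a1, the main collagen of cartilage (ENSMUSG00000022483, chr15:97975602-98004695), had the smallest p of any chain. Its level was 6.72, 4.54 and 18.5 CPM in DPBS and 15.4, 23.5, 21.2 and 53.9 CPM in FAPi libraries. FAPi replicate 4 was the highest and the 2 lowest were DPBS replicates 1 and 2, while DPBS replicate 3 lay above FAPi replicate 1, so that the groups overlapped. A log2 difference of 1.52 ± 0.65 was estimated (edgeR adjusted p = 0.582). It was 2.34 without DPBS replicate 3 and 1.03 without FAPi replicate 4.

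Cartilage genes were scarce in all libraries. Of 10 chondrocyte markers, 7 had counts and Matn1, Matn3 and Ucma had none, and the summed level was 82.3 to 130.0 CPM in DPBS and 68.2 to 173 CPM in FAPi libraries. The defining proteoglycan gene Acan had 0, 0.106 and 2.73 CPM in DPBS and 0.251, 0, 0.233 and 4.47 CPM in FAPi libraries. Cnmd, which encodes chondromodulin, reached 11.5 CPM in DPBS replicate 3 and 33.8 CPM in FAPi replicate 4 and was at most 2.76 CPM elsewhere. DPBS replicate 3 and FAPi replicate 4, the highest Col2a1 library of each group, were also the highest of their group in Acan, Cnmd and Chad, and in the summed level. The other markers with counts did not share this order. Snorc had 36.8 CPM in DPBS replicate 3 and 0.419 CPM in FAPi replicate 4, its lowest FAPi library. Hapln1 was highest in replicate 1 of each group (4.21 and 6.28 CPM) and Comp in replicate 2 of each group (44.4 and 48.3 CPM). The part of cartilage cells in the Col2a1 values was not tested. Sox9, the transcription factor that drives Col2a1 in cartilage, had 26.8, 24.6 and 25.2 CPM in DPBS and 51.6, 13.7, 54.3 and 62.4 CPM in FAPi libraries, with overlap (log2 difference 0.83 ± 0.50, edgeR adjusted p = 0.712).

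The other cartilage-type fibrillar chains had estimates at or below 0, which were above 0 without DPBS replicate 3. Col11a1, a chain of the thin cartilage fibril that is also made by osteoblasts, had 31.7, 29.1 and 161 CPM in DPBS and 62.9, 101, 81.3 and 50.1 CPM in FAPi libraries. Col11a2 had 2.87, 2.22 and 24.1 CPM in DPBS and 8.16, 6.72, 3.14 and 12.6 CPM in FAPi libraries. For both, DPBS replicate 3 was above all other libraries, and DPBS replicates 1 and 2 were below all FAPi libraries. The log2 differences were -0.00015 ± 0.58 for Col11a1 and -0.35 ± 0.91 for Col11a2 (edgeR adjusted p = 0.9999 and 0.963). Without DPBS replicate 3 they were 1.28 and 1.58. Col27a1, a fibrillar chain of cartilage and developing bone, had 59.6, 55.7 and 229 CPM in DPBS and 53.6, 177, 57.9 and 33.8 CPM in FAPi libraries. It was high in DPBS replicate 3 and FAPi replicate 2, as Col1a1 was, and its log2 difference of -0.51 ± 0.63 (edgeR adjusted p = 0.892) became 0.48 without DPBS replicate 3 and -1.26 without FAPi replicate 2.

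**Figure D4:**
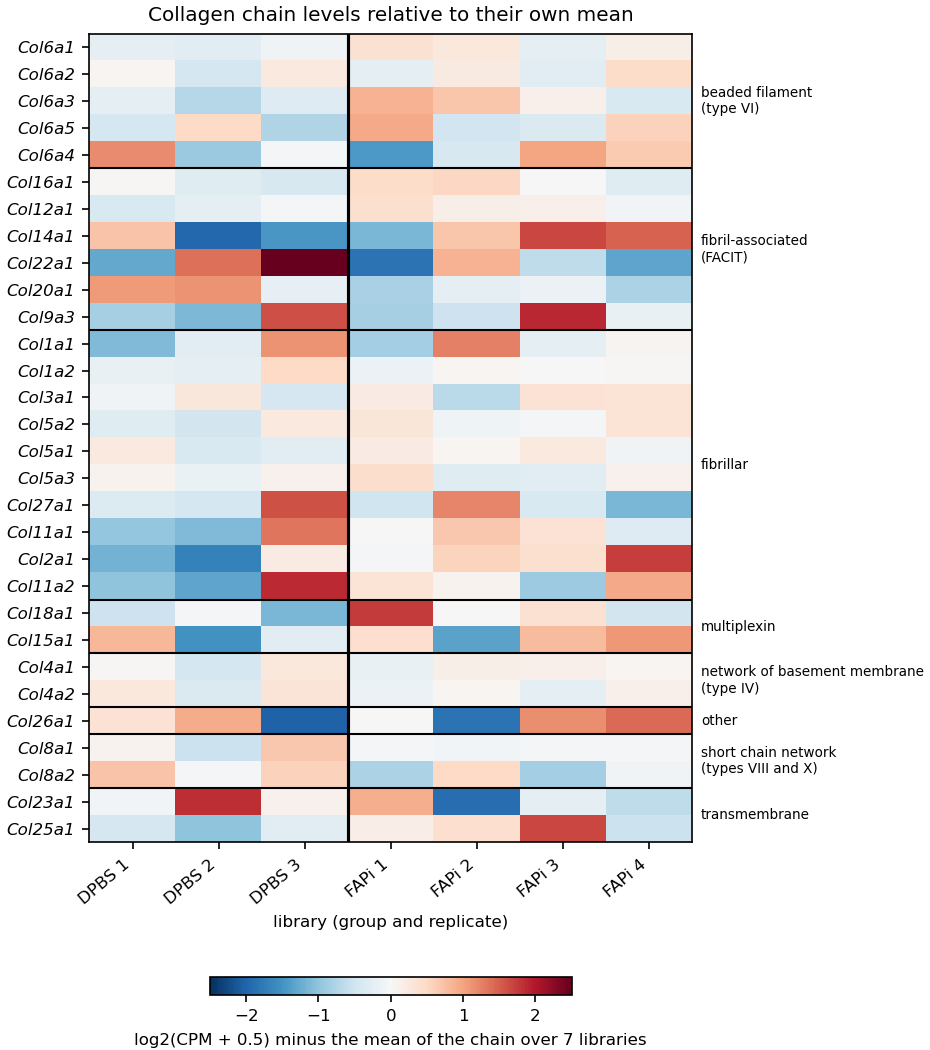
Heat map of log2(CPM + 0.5) minus the chain's own mean over 7 libraries for the 30 tested chains, grouped by structural class, with DPBS libraries to the left of the vertical line and FAPi libraries to the right; red is above and blue below the mean. Within the fibrillar class, Col1a1, Col11a1, Col11a2 and Col27a1 are red in DPBS replicate 3, while Col5a1 and Col5a3 stay close to white in every library.

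Type VI chains had 4 higher estimates and 1 lower among 5 tested, and Col6a2 moved to the lower side with library size only. Col6a1 (ENSMUSG00000001119, chr10:76708792-76726168) had 597, 575 and 649 CPM in DPBS and 903, 833, 597 and 770 CPM in FAPi libraries. In FAPi, 3 libraries lay above all DPBS libraries and FAPi replicate 3 lay among them. FAPi minus DPBS was 0.35 ± 0.22 on the log2 scale (edgeR adjusted p = 0.717). Col6a2, its neighbour on the same strand at a distance of 85161 bases, had 254, 182 and 292 CPM in DPBS and 206, 285, 200.1 and 337 CPM in FAPi libraries. Those ranges overlapped broadly (log2 difference 0.08 ± 0.28, edgeR adjusted p = 0.975).

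Col6a3 (ENSMUSG00000048126, chr1:90765923-90843971) encodes the long α3 chain of the type VI trimer, whose end is released as endotrophin. It had 57.4, 41.2 and 54.3 CPM in DPBS and 125, 111, 74.2 and 52.4 CPM in FAPi libraries. FAPi replicates 1 to 3 were above all DPBS libraries, while FAPi replicate 4 lay within the DPBS range. The estimate of 0.83 ± 0.37 log2 units (edgeR adjusted p = 0.608) ranged from 0.63 to 1.02 when libraries were left out in turn. Per length, Col6a3 to Col6a1 was 0.0352, 0.0262 and 0.0306 in DPBS and 0.0505, 0.0486, 0.0455 and 0.0249 in FAPi libraries. The α3 transcript thus stood far below that of α1 in every library. The chains assemble in equal numbers as protein, which a ratio of RNA per length does not measure. The ratio of Col6a1 to Col6a2 was 4.22 to 6.01 in DPBS and 4.34 to 8.35 in FAPi libraries. Col6a5 and Col6a4, which encode alternatives to α3, stayed at or below 17.5 CPM in every library.

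Basement membrane chains of the common type varied little, with a highest library 1.63 times the lowest for Col4a1 and 1.62 times for Col4a2. Col4a1 had 386, 277 and 451 CPM in DPBS and 333, 418, 414 and 392 CPM in FAPi libraries. Col4a2 had 187, 122 and 197 CPM in DPBS and 141, 163, 132 and 170.3 CPM in FAPi libraries. Both were highest in DPBS replicate 3 and lowest in DPBS replicate 2, and their FAPi values lay within the DPBS range. The log2 differences were 0.07 ± 0.24 for Col4a1 and -0.15 ± 0.27 for Col4a2 (edgeR adjusted p = 0.977 and 0.932). That of Col4a1 was -0.12 with library size only and 0.23 without DPBS replicate 3, and that of Col4a2 was -0.34 without DPBS replicate 2 and -0.026 without DPBS replicate 3.

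The ratio of the pair that shares the start printed above was 1.83, 2.01 and 2.03 in DPBS and 2.09, 2.27, 2.78 and 2.04 in FAPi libraries per length. The α1:α2 protomer of type IV holds 2 α1 chains and 1 α2 chain, a protein number that a ratio of RNA does not measure. With the longest transcript as length, the ratio ran from 2.01 to 3.06. It had the narrowest range of the 6 ratios that could be given, 1.52-fold. Its groups did not overlap, beside 7.34% of single genes tested, although DPBS replicate 3 and FAPi replicate 4 lay next to each other. With 6 ratios examined and chosen from pairs with at least 10 counts in every library, no test is attached to it. The 4 other type IV genes encode the chains of kidney glomerulus and other special basement membranes. Each of these genes had no more than 33 counts in all libraries together.

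**Figure D5:**
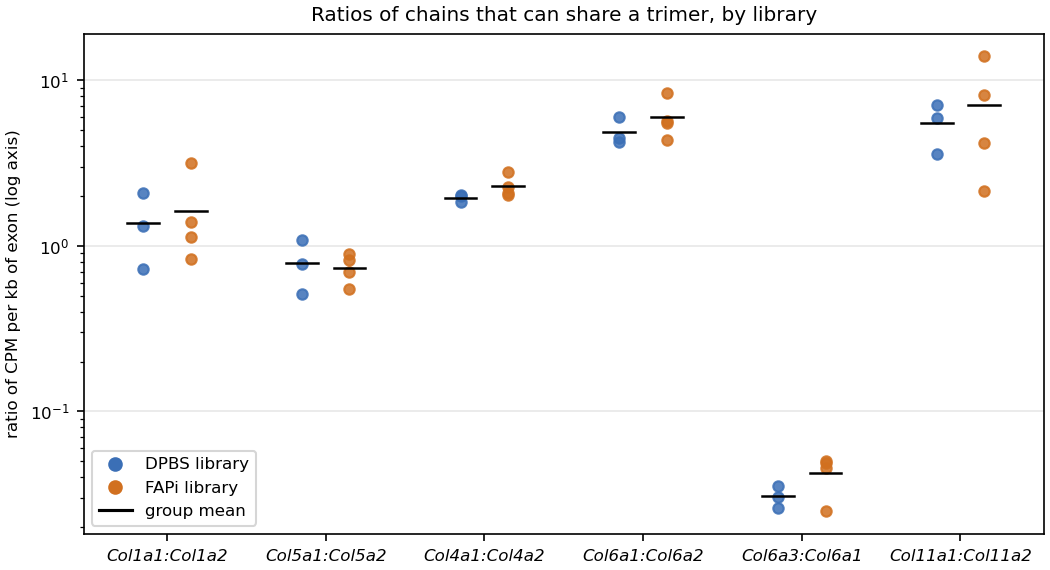
Ratio of CPM per kb of exon for 6 pairs of chains that can share a trimer, 1 point per library on a log axis; blue is DPBS, orange FAPi, and black lines are group means. Col4a1 to Col4a2 lies in the narrow band of 1.83 to 2.78, whereas Col11a1 to Col11a2 spreads from 2.15 to 13.9.

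Col8a1 encodes a chain of the hexagonal lattice of Descemet's membrane and vessel walls. Per length it stood next to Col4a1, at a step within the sum of their SDs. It had 482, 311 and 722 CPM in DPBS and 442, 436, 437 and 437 CPM in FAPi libraries. The FAPi libraries were nearly equal (438 ± 2.64, SD, n = 4) and lay inside the wide DPBS range (505 ± 207, SD, n = 3). A log2 difference of -0.21 ± 0.28 (edgeR adjusted p = 0.905) was estimated, and 0.14 without DPBS replicate 3. Its partner Col8a2 had 0.466 to 2.33 CPM and too few counts for a ratio.

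FACITs were led by Col16a1, which had 70.1, 55.2 and 51.8 CPM in DPBS and 94.1, 97.8, 67.6 and 55.7 CPM in FAPi libraries. FAPi replicates 1 and 2 stood above every DPBS library, and the other two FAPi libraries lay within the DPBS range (log2 difference 0.42 ± 0.33, edgeR adjusted p = 0.795). Of 6 tested FACITs, 4 had higher and 2 lower estimates. The largest estimates of either sign among all chains were FACITs of low level, and these were chosen after their values were seen. Col14a1, which binds fibrils of skin and tendon, had 6.81, 0.634 and 1.13 CPM in DPBS and 1.51, 6.72, 13.6 and 11.9 CPM in FAPi libraries. DPBS replicate 1 lay above FAPi replicates 1 and 2. Its log2 difference of 1.55 ± 1.07 (edgeR adjusted p = 0.745) was 3.23 without DPBS replicate 1.

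Col22a1, a collagen of tissue junctions such as muscle to tendon, had 1.16, 10.03 and 28.5 CPM in DPBS and 0.628, 6.85, 2.10 and 1.12 CPM in FAPi libraries. DPBS replicates 2 and 3 were above all FAPi libraries and DPBS replicate 1 was not. Its estimate was -2.30 ± 1.10 log2 units (edgeR adjusted p = 0.629), and -1.07 without DPBS replicate 3. Col20a1 had an estimate of -1.43 ± 0.84 at levels of 1.51 to 7.18 CPM. Col9a3, a chain of cartilage fibrils that overlaps 234 exon bases of Tcfl5 on the other strand, had its highest values in FAPi replicate 3 (6.87 CPM) and DPBS replicate 3 (5.65 CPM). The sources used here do not say whether counting used strand, so reads from these bases, 6.07% of the Col9a3 exon, cannot be assigned to either gene.

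Multiplexins carry antiangiogenic fragments, and Col18a1 is the source of endostatin. Col18a1 had 13.1, 18.6 and 8.29 CPM in DPBS and 64.4, 18.9, 24.7 and 13.7 CPM in FAPi libraries. FAPi replicates 1 to 3 were above all DPBS libraries, the second of them narrowly, and FAPi replicate 4 was not. The estimate of 1.19 ± 0.61 log2 units (edgeR adjusted p = 0.654) was 0.52 without FAPi replicate 1. All 7 endothelial markers had counts in some library, but Tek had none in FAPi replicate 1. In FAPi replicate 1 the markers summed to 373 CPM, against 29.3 to 84.8 CPM in the other 6 libraries. Of that sum 340.3 CPM came from Kdr alone, and Pecam1 and Cdh5 had 12.2 and 1.88 CPM there. The part of these in the Col18a1 value was not tested.

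Transmembrane chains were led by Col23a1, which had 15.5, 59.7 and 17.5 CPM in DPBS and 31.0, 4.01, 13.9 and 10.3 CPM in FAPi libraries. DPBS replicate 2 was the highest and FAPi replicate 2 the lowest. The log2 difference of -1.06 ± 0.71 (edgeR adjusted p = 0.740) was -0.16 without DPBS replicate 2, -1.72 without FAPi replicate 1 and -1.39 without DPBS replicate 1. DPBS replicate 2 also had the highest sums of red cell markers (15142 CPM) and neutrophil markers (2607 CPM), whose part in the value was not tested. Col25a1, the other tested transmembrane chain, had an estimate of 1.39 ± 0.93, and 0.73 without FAPi replicate 3. Col26a1, which fits none of these classes, had 3.58, 5.49 and 0.283 CPM in DPBS and 2.64, 0.388, 6.64 and 7.96 CPM in FAPi libraries. In both groups 1 library was near the floor, and the log2 difference was 0.50 ± 1.18 (edgeR adjusted p = 0.958), -0.044 without DPBS replicate 3 and 1.18 without DPBS replicate 2.

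Spread between libraries was typical of the data. The highest library of a tested chain stood a median of 4.88-fold above its lowest, beside 4.9998-fold for the genes tested, of which 196 with no count in some library were left out. Of the 30 chains, 10 varied less than 2-fold and 8 at least 10-fold. DPBS replicate 3 was the highest library for 8 chains, FAPi replicate 1 for 6 and FAPi replicate 4 for 5, and the other 4 libraries for 2 to 4 each.

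Genes that make, bind and cut collagen are given as counts by direction. Of 36 genes of collagen biosynthesis and crosslinking, 31 were tested, with 15 higher estimates, 16 lower, a median log2 difference of -0.0049 and no gene past the threshold. Their summed level was 3504 to 3761 CPM in DPBS and 3402 to 3831 CPM in FAPi libraries. At an unadjusted p under 0.05 there was 1 gene of the 31, beside 8.14% of all genes. It was Creb3l1, a transcription factor that drives type I collagen genes in bone. It had 23.9, 146 and 46.3 CPM in DPBS and 19.2, 24.4, 20.97 and 28.5 CPM in FAPi libraries, with DPBS replicate 2 far above the rest and DPBS replicate 1 within the FAPi range. The log2 difference was -1.63 ± 0.55 (edgeR adjusted p = 0.493), and -0.60 without DPBS replicate 2. Mia3, which loads procollagen for export, had 115, 119 and 154 CPM in DPBS and 343, 178, 130.0 and 182 CPM in FAPi libraries (log2 difference 0.69 ± 0.35, edgeR adjusted p = 0.648). FAPi replicate 1 was the highest, FAPi replicate 3 lay within the DPBS range, and the difference was 0.34 without FAPi replicate 1.

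Of 12 collagen receptors, 10 were tested, with 3 higher and 7 lower estimates, a median of -0.15 and no gene past the threshold. At an unadjusted p under 0.05 there were 2, Itga1 and Adgrg6, beside 8.14% of all genes. Itga1, the α1 subunit of the integrin that binds type IV and type I collagen, had 1785, 1281 and 1535 CPM in DPBS and 668, 939, 1013 and 681 CPM in FAPi libraries. Every FAPi library lay below every DPBS library, beside 7.34% of all genes with separate groups in either direction. Its log2 difference of -0.89 ± 0.24 did not pass the threshold (edgeR adjusted p = 0.469). It ranged from -1.01 to -0.78 when libraries were left out in turn. Adgrg1 also had separate groups, with 10.6 to 14.4 CPM in DPBS and 2.13 to 9.49 CPM in FAPi libraries (edgeR adjusted p = 0.714). Adgrg6, a receptor for type IV collagen, had at most 2.10 CPM in 5 libraries, 8.10 CPM in FAPi replicate 4 and 24.4 CPM in FAPi replicate 1. Its difference of 2.62 ± 1.10 (edgeR adjusted p = 0.574) became 1.42 without FAPi replicate 1. A list of 10 proteases held collagen-cleaving enzymes, Fap among them, and the peptidases Prep and Dpp4, which are not collagenases. Of these 10, 9 were tested, with 4 higher and 5 lower estimates and no gene past the threshold. Dpp4 and Mmp8 had an unadjusted p under 0.05, beside 8.14% of all genes, and were chosen after their values were seen. Dpp4, a relative of Fap, had 0.471 to 0.845 CPM in DPBS and 0.582 to 14.4 CPM in FAPi libraries (edgeR adjusted p = 0.520). Mmp8, the neutrophil collagenase, had 2.36 to 14.2 CPM in DPBS and 0.377 to 0.775 CPM in FAPi libraries (edgeR adjusted p = 0.482). It is also 1 of the 8 neutrophil markers, which summed to 600.3 to 2607 CPM in DPBS and 182 to 607 CPM in FAPi libraries. Mmp8 had separate groups, as did Ctsk (99.6 to 105 CPM in DPBS, 52.1 to 93.3 CPM in FAPi), beside 7.34% of all genes.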

How the data were processed

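The authors deposited counts per gene and CPM per gene for each library; per the submitters' processing notes these used STAR, HTSeq and mm10, with no versions, and the sources used here give neither the annotation nor the strand setting. The deposited CPM values are count divided by library total. The counts carry the tag rmdup, which the sources used here do not describe. Whether duplicate reads were removed, and what that did to the levels of abundant genes, was not tested. Symbols and coordinates came from GENCODE M21. Collagen chains, the gene lists and the tests were chosen with earlier results of these data known. Chains named by rule were those at an unadjusted p under 0.05 and the 10 highest per length. The rule also took the most abundant of each class and any with separate groups. Up to 4 biosynthesis and receptor genes per list were named by smallest p, with Fap. Other chains given with values or estimates, among them Col11a1, Col11a2, Col27a1, Col14a1 and Col22a1, fell outside these rules. They were named with their values known.

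Counts were fitted in R 4.3.3 with edgeR 4.0.16 (TMM, filterByExpr by group with minimum count 10, robust glmQLFit and glmQLFTest) on all 7 libraries, without a block, and p-values were adjusted by Benjamini-Hochberg over 12930 genes at a threshold of 0.05. SEs were derived from the F statistic. Shares have Wilson intervals at 95%, and reads without molecular identifiers are not independent molecules. Alternatives were other scalings, DESeq2 1.42.0, limma 3.58.1 (voom with sample weights, and log2 of deposited CPM plus 1), other filters, a replicate block, each library left out, other denominators and another length. The functions were tested on simulated data. Repeated lines at the end of 6 CPM tables were not used.

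Replicate numbers recur in both groups, but same-numbered libraries did not deviate together, so the numbers were not treated as pairs.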

Additional observations from a re-analysis of the deposited data

Results flagged for a closer look

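In the FAPi group of 4 libraries, 48 values (36 chains, the collagen share, 6 ratios and 5 other genes) were checked for a library whose gap to the nearest other exceeded Dixon's critical share of the range. For values with a normal spread, chance marks about 1 in 20, here 2.4, and 7 were marked, 6 of them at the highest library. That rate does not hold for chains with counts in few libraries. Col7a1, whose only counts were in FAPi replicate 4, had to be marked, so no excess over 2.4 is read from the 7. The 3 DPBS libraries are too few for this check. Col1a2 was low in FAPi replicate 1 (2737 CPM, others 3065 to 3129). Col27a1 was high in FAPi replicate 2 (177 CPM, others 33.8 to 57.9), and a DPBS library reached 229 CPM. Col9a3 was high in FAPi replicate 3 (6.87 CPM, others 0.628 to 1.26). Chains near the floor made up the rest. Col28a1 had 4.61 CPM in FAPi replicate 4 and at most 0.211 CPM in any other library. Col4a4, a glomerular basement membrane chain, had 3.91 CPM in FAPi replicate 4 and at most 0.283 CPM elsewhere. Its head-to-head neighbour Col4a3, 71 bases away on chromosome 1, had 2.33 CPM in FAPi replicate 2 and at most 0.140 CPM elsewhere, so each of the pair stood out in a different library. Col4a3 shares 563 exon bases with C430014B12Rik on the other strand. Col7a1, the anchoring fibril collagen of skin, had 0.558 CPM in FAPi replicate 4 and no count elsewhere.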

How the results depend on the processing

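Chains past the threshold stayed at 0 under all 15 alternatives of the fit, and the smallest adjusted p of a chain was 0.303, with DESeq2. Over all genes the count of 0 became 135 with DESeq2 (84 higher, 51 lower, 663 adjusted p-values not given), 1 with voom (1 higher, Stard8), 2 with limma on deposited CPM (2 higher, Stard8 and Gm47917), 6 with no low-count filter (5 higher, Ncoa3, Stard8, Cdk6, Zbtb40 and Gm47917, and 1 lower, Ldah) and 0 to 3 when a library was left out (higher 0 to 2, lower 0 to 1). The 3 calls, Stard8, Gm47917 and Mbnl3, came without DPBS replicate 3. Chains at an unadjusted p under 0.05 numbered 1 with library size only (Col22a1), voom (Col2a1), deposited CPM (Col2a1) or a mean of at least 5 CPM (Col2a1), and 4 with DESeq2 (Col2a1, Col6a3, Col18a1 and Col22a1) or no filter (Col2a1, Col6a3, Col22a1 and Col4a3), and 0 to 3 when a library was left out, with 0 without DPBS replicate 2. Between 5.55% and 9.54% of all genes reached that p in these fits. The median log2 difference of the chains was 0.30 with voom and from -0.087 to 0.28 when a library was left out.

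The replicate block left 0 genes past the threshold, 718 genes and 1 chain (Col6a3) at an unadjusted p under 0.05, and reversed Col6a2 (-0.071), Col26a1 (-0.15), Col11a1 (0.62) and Col11a2 (0.27). Same-numbered libraries had correlations of deviations of -0.0084, -0.018 and -0.051, and FAPi replicate 4 has no partner.

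Of 28 named genes 18 kept their direction under every alternative. Reversals with library size only were Col1a1 (-0.11), Col4a1 (-0.12) and Col6a2 (-0.11). With deposited CPM they were Col1a1 (-0.028), Col4a1 (-0.085), Col6a2 (-0.10), Col3a1 (-0.044), Col11a1 (0.25) and Col11a2 (0.087). Col11a1, at 0 within rounding, was 0.034 with RLE factors, 0.034 with DESeq2, 0.53 with voom and 0.0063 with a mean of at least 5 CPM, and Col11a2 was 0.31 with voom. Leaving out a library gave ranges of -0.51 to 0.90 for Col1a1, -0.21 to 0.20 for Col1a2, -0.46 to 0.14 for Col8a1, -0.11 to 0.23 for Col4a1, -0.090 to 0.24 for Col6a2, -0.044 to 1.18 for Col26a1, -1.26 to 0.48 for Col27a1, -0.39 to 1.28 for Col11a1 and -0.83 to 1.58 for Col11a2. The log2 ratio per length of Col1a1 to Col1a2, 0.67, was -0.40 with the longest transcript as length, by the construction of that length. The other causes were not tested.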
